A study of Mus musculus with 4 samples.

Results

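The genes described here are 31 genes of cholesterol and fatty acid synthesis, picked by name from the 41029 genes of an RNA-seq table of mouse bone marrow mesenchymal stem/progenitor cells. All 31 were found by their mouse Ensembl identifiers. They comprise 17 enzymes of the sterol branch, 9 enzymes of the fatty acid branch, the 4 regulators Srebf1, Srebf2, Scap and Insig1, and the sterol carrier gene Stard4. The study sequenced RNA from 2 libraries labelled Tet2-/- (called Tet2 knockout 1 and 2 below) and 2 labelled wild type (wild type 1 and 2). All 4 came from C57BL/6 mice, and the cells had been grown in MesenCult medium, replated as they filled the dish, and lifted with trypsin. The TET2 protein converts methylcytosine to oxidised forms on the way to demethylation. The comparison asks which transcripts of these stromal cells differ where Tet2 is lost. The labels give no age, no treatment and no account of the Tet2 allele or of the cells it was lost from. They do not say whether replicates are separate animals or cultures, so p-values measure only the spread between these 4 libraries.

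Cells build cholesterol and fatty acids from the same cytosolic acetyl-CoA. The sterol branch runs through mevalonate, the isoprenoid farnesyl diphosphate, squalene and lanosterol, and the fatty acid branch makes palmitate and then lengthens and desaturates it. Both branches are switched on by the SREBP transcription factors, which SCAP carries out of the endoplasmic reticulum when sterol runs low and which INSIG proteins hold back when it is plentiful. The factor encoded by Srebf2 acts mainly on sterol genes and that of Srebf1 mainly on fatty acid genes. In marrow stroma these lipids serve membranes in dividing cells and storage in cells that turn into adipocytes.

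The libraries held 10096878 to 21337246 reads over genes. Levels are in FPKM, reads scaled to gene length and to that total, so differences here are in the RNA pool and cannot tell fewer cells of a type from less RNA per cell. Tet2 itself stood at 11.6 and 9.70 FPKM in the libraries labelled knockout and at 7.01 and 8.39 in wild type, so its level does not separate the groups in the labelled direction. A gene total cannot show a missing exon, and the knockout libraries are called so by their label only. All 8 stromal marker genes listed passed the filter on low values, although Eng, which encodes endoglin, fell to 1.53 and 1.59 FPKM from 110 and 102 (log2 -5.38, adjusted p = 0.0237, limma), a call lost with the replicate block (adjusted p = 0.13), with voom (adjusted p = 0.107) and without wild type 1 or 2 (adjusted p = 0.644 and 0.583). Of these 8 markers 2 lay above both wild-type libraries and 3 below both, beside 29.4% and 24.8% of all genes tested. The knockout libraries were far apart in several. Among those, picked after their values were seen, Pdgfra stood at 38.8 and 16.0 FPKM against 8.73 and 8.79, Nt5e at 9.46 and 61.1 against 3.28 and 3.13, and Thy1 at 131 and 8.27 against 14.9 and 16.0. The part of these markers in the values below was not tested. None of 5 endothelial markers passed the filter. The macrophage markers summed to 68.9 and 105 FPKM in the knockout libraries and 97.5 and 94.6 in wild type, much of it Lyz2. Of 7 tested macrophage markers 4 lay above both wild-type libraries and 1 below both, with a median log2 difference of 0.30. In 6 of the 7 knockout 2 stood higher than knockout 1, beside 48.5% of all genes. The part of macrophage markers in the branch values was not tested. The knockout libraries also lay far apart in osteoblast markers, with a sum of 6564 and 17159 FPKM in knockout 1 and 2, with 8103 and 7951 for the wild-type pair. Most of that sum was Col1a1 and Spp1. Of 8 tested osteoblast markers 7 were higher in knockout 2 than in knockout 1, beside 48.5% of all genes, and Spp1 was lower. The median log2 difference between the knockout libraries was 5.44. Picked after their values were seen, Alpl stood at 8.21 and 501 FPKM against 6.75 and 6.82. Ibsp stood at 0.488 and 435 against 5.17 and 4.95. The part of osteoblast markers in the branch values was not tested.

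Genes of both branches were expressed well in every library. All 31 stood at 1 FPKM or more in all 4 libraries, so no member was lost to the filter. Scd2 was the most abundant, followed in wild type by Cyp51, and Fdps was the lowest. The depth behind the values ran from at least 41 reads (Fdps in wild type 1) to at least 33307 (Scd2 in knockout 2). Summed over all 31, the level was 2412 and 2445 FPKM in knockout 1 and 2, with 2175 and 2193 for wild type 1 and 2, which is 0.359% to 0.428% of all FPKM in a library.

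**Figure D1:**
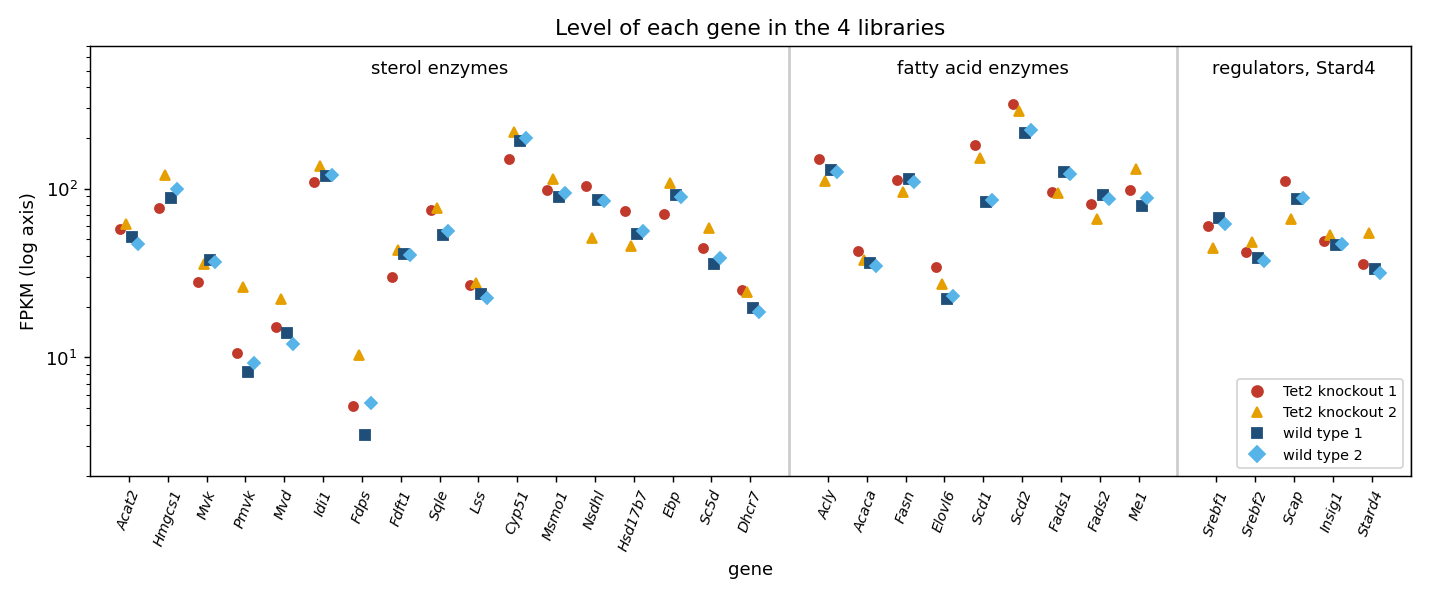
FPKM of the 31 genes (log axis) in each of the 4 libraries, by branch; each point is 1 library. The wild-type points lie close together for most genes, and the knockout points often lie apart, as for Pmvk, Nsdhl and Scap.

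No member of either branch passed the test over all genes. Across the table, limma called 2 of 12344 genes, 0.0162%, at an adjusted p under 0.05 (0.0081% higher and 0.0081% lower in the knockout libraries), and 0 of the 31 members were among them. The smallest adjusted p among members was 0.188, for Scd1 (limma). At an unadjusted p under 0.05 there were 5 members, 4 higher and 1 lower in the knockout libraries, beside 17.1% of all genes tested. A p that misses the threshold does not show that the levels were equal. The 95% interval of the difference took in 0 for most members, and that of Pmvk, the widest, ran from -0.38 to 2.12 on the log2 scale.

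As branches the genes stood slightly higher in the knockout libraries, and which branch stood higher depended on the calculation. The median log2 difference was 0.21 over the 17 sterol enzymes and 0.18 over the 9 fatty acid enzymes, beside 0.03 over all genes tested. The gap, fatty acid minus sterol, was -0.022. Less each chromosome's median, a calculation chosen after seeing the data, the sterol median was 0.083, the fatty acid median 0.25 and the gap 0.16. Both knockout libraries exceeded both wild-type ones in 8 sterol and 5 fatty acid enzymes, and were under both in 1 and 2. Over all genes tested, 29.4% lay above both and 24.8% below both, 54.2% together. No member differed by 1 or more on the log2 scale, whereas 747 of the 12344 genes did.

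**Figure D2:**
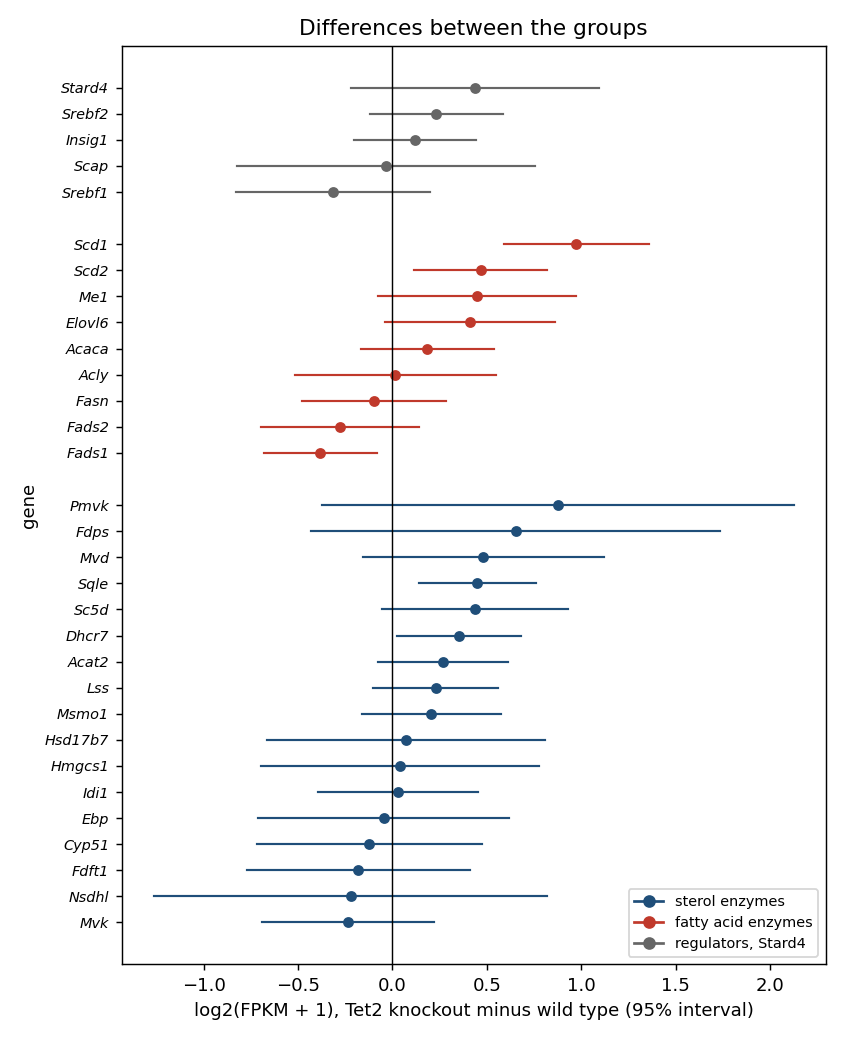
Difference of each gene between the knockout-labelled and wild-type libraries in log2(FPKM + 1), with the 95% interval from the limma fit (2 libraries against 2, unadjusted for the number of genes). Scd1 has the largest difference, at 0.97, and the intervals of Scd1, Scd2, Sqle, Dhcr7 and Fads1 leave out 0.

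The 2 knockout libraries differed from each other, and the branches leaned opposite ways between them. Of the 17 sterol enzymes, 14 stood higher in knockout 2 than in knockout 1, beside 48.5% of all genes tested. Of the 9 fatty acid enzymes, 8 stood higher in knockout 1, beside 51.5% of all genes. The median difference of knockout 2 from knockout 1 was 0.34 on the log2 scale for the sterol enzymes and -0.23 for the fatty acid enzymes, and -0.018 over all genes. The 3 sterol exceptions were Nsdhl, Hsd17b7 and Dhcr7, and the fatty acid exception was Me1. With 1 library on each side this has no replicate check and no test. Scd1, Scd2, Fads1 and Fads2, 4 of the 9 fatty acid enzymes, lie on chromosome 19, whose median moved by -0.21 from knockout 1 to knockout 2. Less the chromosome medians, a calculation chosen after seeing the data, 15 of 17 sterol enzymes stood higher in knockout 2 (median 0.29), but 6 of 9 fatty acid enzymes stood higher in knockout 1, with a median of -0.080. Of the 5 fatty acid enzymes on other chromosomes, 4 stood higher in knockout 1.

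Set against the wild-type mean, the sterol median was 0.21 in knockout 1 and 0.31 in knockout 2, and the fatty acid median 0.24 and 0.098. Both contrasts share the wild-type libraries. The gap between the branches was thus 0.031 in knockout 1 and -0.21 in knockout 2. In the 4 pairs of a knockout and a wild-type library the fatty acid median lay above the sterol median in both pairs with knockout 1 (0.098 and 0.071) and below it in both with knockout 2 (-0.18 and -0.15). The sterol enzymes summed to 999.6 and 1176 FPKM in knockout 1 and 2, with 1007 and 1032 for wild type 1 and 2. That of the fatty acid enzymes was 1114, 1002, 895 and 895 FPKM in the same order. The fatty acid sum was above both wild-type libraries in both knockout libraries, and the sterol sum only in knockout 2.

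**Figure D3:**
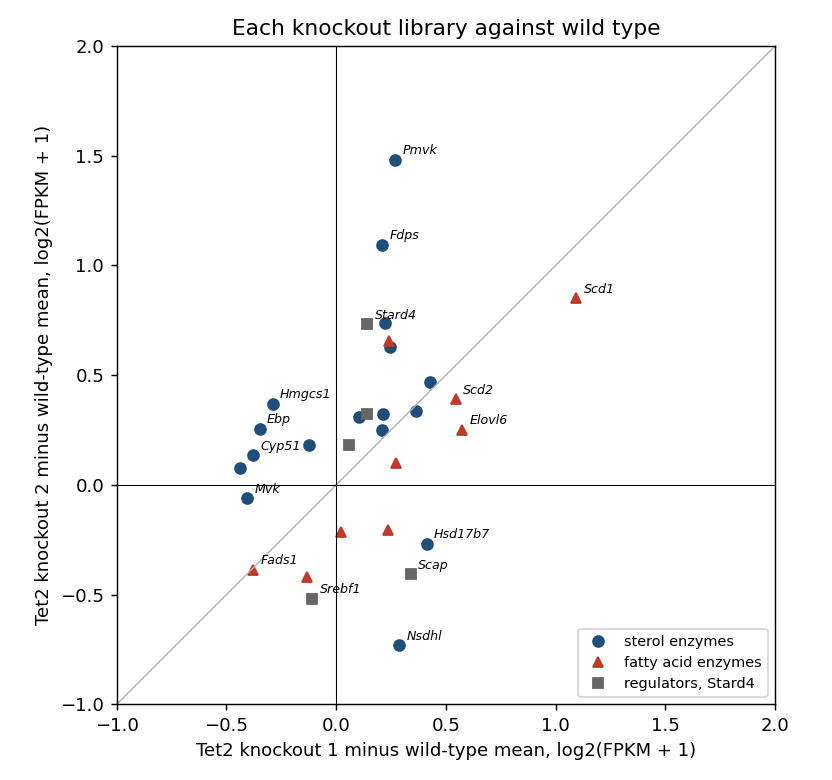
Difference of knockout 1 (x axis) and knockout 2 (y axis) from the wild-type mean in log2(FPKM + 1), 1 point per gene; the diagonal marks equal differences. Of 17 sterol enzymes 14 lie above the diagonal, and of 9 fatty acid enzymes 8 lie below it.

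Some members left the wild-type range in opposite directions in the 2 knockout libraries, and they are named here after their values were seen. Over all 31 members, 16.1% had knockout 1 below and knockout 2 above both wild-type libraries, beside 13.3% of all genes, and 12.9% had the reverse order, beside 14.6%. These shares are near those of all genes. The first order was that of 5 sterol enzymes and of no fatty acid enzyme or regulator. They were Hmgcs1, which makes the HMG-CoA that enters the mevalonate pathway, Idi1, which isomerises isopentenyl diphosphate, Fdft1, the squalene synthase gene, Cyp51, the lanosterol demethylase gene, and Ebp, a sterol isomerase gene. Hmgcs1 had 76.4 FPKM in the first knockout library and 121 in the other, with 87.7 and 99.9 for wild type 1 and 2. For Cyp51 the knockout values were 151 and 216 FPKM, against 193 and 200. In both genes the wild-type values lay between the knockout values.

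Idi1 had 110 and 136 FPKM in the knockout pair and 119 and 121 in the wild-type pair. Fdft1 stood at 29.9 and 43.1 FPKM, beside 40.9 and 40.7. Ebp stood at 70.6 and 108 FPKM, beside 91.4 and 88.9. In each of the 3 the wild-type libraries were nearly level and the knockout libraries bracketed them. The reverse order, knockout 1 above and knockout 2 below, held in 4 members. These were Acly, which splits citrate into the acetyl-CoA both branches use, Scap, and the sterol enzymes Nsdhl and Hsd17b7. Nsdhl and Hsd17b7 act in the series of steps that removes methyl groups from the sterol ring.

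Nsdhl had 104 and 50.7 FPKM in knockout 1 and 2, with 85.4 and 84.1 for the wild-type pair. Hsd17b7 stood at 73.6, 45.5, 53.8 and 56.3 FPKM in that order. Acly stood at 151, 110, 129 and 126 FPKM. All 3 were highest in knockout 1 and lowest in knockout 2. Nsdhl and Ebp lie on chromosome X, whose genes had a median log2 difference from wild type of 0.073 in knockout 1 and -0.32 in knockout 2. Nsdhl was lower and Ebp higher in knockout 2 than in wild type, and the part of the chromosome in either value was not tested.

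Promoters of the 2 branches are shown because nearly all the sterol genes with a window share a motif. The sequences are RefSeq windows of 300 bases in build GRCm38.p6, from 250 before to 50 after an annotated start, read 5′ to 3′ along the gene. Some genes had several windows, and a motif in any of them counted. They were found for 24 of the 31 members, and not for Scd1, Scd2, Fads1, Sqle, Fdps, Fdft1 and Stard4. The letters CCAAT, the site of the factor NF-Y that works with SREBPs in mammalian sterol promoters, were searched on both strands. They stood in a window of 13 of the 14 sterol enzymes with one and of 3 of 6 fatty acid enzymes. The share was 41.1% over all 27025 genes of the promoter set, which was not limited to genes tested for level. The GC box GGGCGG, also on both strands, stood in 13 of 14 sterol and 3 of 6 fatty acid genes, beside 38.2% of all. The windows are not alike. The only Acaca window begins at 84195188, inside a gene that begins at 84129672, and it held neither motif. Dhcr7 had several windows, and its CCAAT stood only in one from 143829964, inside a gene that begins at 143823145. By window, CCAAT stood in 13 of 17 sterol and 3 of 7 fatty acid windows, beside 37.4% of all. The E-box CACGTG stood in 3 of 14 sterol genes, in 0 of 6 fatty acid genes, and in 8.09% of all. Of the 4 regulators, 3 held CCAAT, 4 the GC box and 2 (Insig1 and Scap) the E-box. The sterol regulatory element, searched as TCACNCCAC on both strands, stood in 1 member, Hmgcs1, and in 1.44% of all genes of the promoter set. A match is a string of letters and not a shown site, and no match says nothing of the factor.

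Capitals mark CCAAT (written ATTGG on the other strand), CACGTG and TCACNCCAC. Hmgcs1 and Mvk are 2 sterol genes that were lower in knockout 1 than in wild type, Sc5d is a sterol gene higher in both knockout libraries, Fasn is the central fatty acid synthase gene, and Fads2 is a fatty acid gene with none of the marked motifs. Hmgcs1 holds 4 CCAAT and, at position -137 from its start, the sterol regulatory element TCACCCCAC. Mvk holds 5 CCAAT, and Fasn 3, of which 2 overlap.
Hmgcs1 promoter, chr13:119690101-119690400, plus strand: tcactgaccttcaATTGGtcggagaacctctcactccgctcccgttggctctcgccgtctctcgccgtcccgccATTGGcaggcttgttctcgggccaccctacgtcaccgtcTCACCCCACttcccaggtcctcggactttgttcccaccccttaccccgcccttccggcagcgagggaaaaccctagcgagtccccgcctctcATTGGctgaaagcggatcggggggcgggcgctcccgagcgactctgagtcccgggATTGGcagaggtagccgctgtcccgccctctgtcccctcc
Mvk promoter, chr5:114444019-114444318, plus strand: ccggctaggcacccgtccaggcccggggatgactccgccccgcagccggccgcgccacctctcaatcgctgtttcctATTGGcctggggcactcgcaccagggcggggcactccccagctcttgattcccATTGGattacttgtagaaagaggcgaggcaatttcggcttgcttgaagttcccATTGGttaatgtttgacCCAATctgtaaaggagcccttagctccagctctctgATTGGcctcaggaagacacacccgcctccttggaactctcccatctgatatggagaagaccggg
Sc5d promoter, chr9:42264251-42264550, minus strand: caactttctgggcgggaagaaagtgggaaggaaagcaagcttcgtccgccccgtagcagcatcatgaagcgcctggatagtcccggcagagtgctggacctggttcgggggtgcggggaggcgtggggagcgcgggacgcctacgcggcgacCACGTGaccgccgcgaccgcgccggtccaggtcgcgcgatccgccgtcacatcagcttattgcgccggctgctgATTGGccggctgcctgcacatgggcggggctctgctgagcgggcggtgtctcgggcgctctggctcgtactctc
Fasn promoter, chr11:120824498-120824797, minus strand: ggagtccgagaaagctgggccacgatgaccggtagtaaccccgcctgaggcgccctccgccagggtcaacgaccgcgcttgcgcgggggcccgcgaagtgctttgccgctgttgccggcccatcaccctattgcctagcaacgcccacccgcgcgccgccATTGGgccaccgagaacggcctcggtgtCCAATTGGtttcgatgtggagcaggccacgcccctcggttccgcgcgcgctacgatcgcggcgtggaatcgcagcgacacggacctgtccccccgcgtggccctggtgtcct
Fads2 promoter, chr19:10101454-10101753, minus strand: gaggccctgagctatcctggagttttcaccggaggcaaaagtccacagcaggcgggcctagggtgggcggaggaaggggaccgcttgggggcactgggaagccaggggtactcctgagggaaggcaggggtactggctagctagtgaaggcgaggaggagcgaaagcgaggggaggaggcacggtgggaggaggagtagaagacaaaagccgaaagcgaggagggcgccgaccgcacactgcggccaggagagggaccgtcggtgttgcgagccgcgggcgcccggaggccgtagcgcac

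The first steps of the sterol branch run from acetyl-CoA to the isoprenoid unit. Pmvk, which encodes phosphomevalonate kinase, had 10.7 and 26.0 FPKM in knockout 1 and 2, with 8.16 and 9.21 for wild type. Knockout 2 stood far above the other 3 libraries, in a 2.11-fold ratio of means (log2 0.87, SE 0.45, adjusted p = 0.39, limma). Mvd, which encodes the decarboxylase that follows it, stood at 15.3 and 22.2 FPKM in the knockout libraries and 14.0 and 11.98 in the wild-type pair (log2 0.48, SE 0.23, adjusted p = 0.366, limma). Acat2, the cytosolic thiolase that joins acetyl-CoA units, stood at 57.4 and 61.9 FPKM against 51.7 and 47.1 (log2 0.27, SE 0.12, adjusted p = 0.353, limma). In these 3 genes each knockout library exceeded each wild-type library.

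Mvk, the mevalonate kinase gene, was the 1 sterol enzyme whose knockout values were both under the wild-type pair. Its values were 27.9 and 35.7 FPKM, with 37.6 and 37.0 for wild type (log2 -0.23, SE 0.16, adjusted p = 0.51, limma). Knockout 2 lay just under the wild type, and the gap came from knockout 1. Mvk and Pmvk, which act one after the other, thus had differences of opposite sign, neither of which passed the test. Fdps, which makes farnesyl diphosphate, stood at 5.16 and 10.4 FPKM in the knockout libraries and 3.46 and 5.36 in the wild-type pair (log2 0.65, SE 0.39, adjusted p = 0.448, limma). The groups overlapped, and of the distinct runs of 50 bases in its transcript, 86.4% also occur in transcripts of other annotated genes. Reads of Fdps and its copies may not be separable, so its level is uncertain. The same share was 52.6% for Acaca, 45.9% for Acat2, 33.4% for Me1, 30.7% for Fdft1 and 30.5% for Idi1, whose levels are uncertain for the same reason.

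Sqle encodes squalene epoxidase, a rate-limiting enzyme of the branch. It stood at 74.2 and 76.4 FPKM in the knockout libraries and 53.5 and 56.5 in wild type. Both knockout values exceeded both wild-type values, with a gap larger than the spread within either group (log2 0.45, SE 0.11, adjusted p = 0.234, limma). Dhcr7, the reductase gene of the last step to cholesterol, stood at 24.9 and 24.4 FPKM against 19.6 and 18.7 (log2 0.35, SE 0.12, adjusted p = 0.276, limma). On chromosome 7, where Dhcr7 lies, the median of all genes was -0.027 in knockout 1 and -0.55 in knockout 2, while Dhcr7 was 0.37 and 0.34 above wild type.

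Sc5d, a sterol desaturase gene that acts just before Dhcr7, stood at 44.5 and 58.3 FPKM in the knockout libraries and 35.9 and 38.9 in the wild-type pair (log2 0.44, SE 0.18, adjusted p = 0.324, limma). Lss, which closes squalene epoxide into the ring of lanosterol, stood at 26.8 and 27.7 FPKM against 23.8 and 22.4 (log2 0.23, SE 0.12, adjusted p = 0.392, limma). Msmo1, the methylsterol oxidase gene, stood at 98.2 and 113 FPKM against 88.6 and 94.0 (log2 0.21, adjusted p = 0.475, limma). All 3 were higher in each knockout library than in wild type, without passing the test.

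In the fatty acid branch the 2 desaturase families stood on opposite sides of wild type. Scd1 and Scd2 encode stearoyl-CoA desaturases, which place the first double bond in saturated fatty acids. Scd1 stood at 180 and 152 FPKM in the knockout libraries and 82.8 and 85.1 in wild type. Both knockout libraries were well above both wild-type libraries, a 1.98-fold ratio of means of 166 ± 19.9 and 84.0 ± 1.602 FPKM (mean ± SD, n = 2 each). The log2 difference of 0.97 (SE 0.14, 95% interval 0.59 to 1.36) was the largest of the 31 members and did not pass over all genes (adjusted p = 0.188, limma). Scd2 stood at 319 and 286 FPKM against 215 and 221, again without overlap (log2 0.47, SE 0.13, adjusted p = 0.246, limma).

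Scd1 and Scd2 alone summed to 499 and 439 FPKM in the knockout libraries and 298 and 306 in wild type. The other 7 enzymes of the branch, a split made after the values were seen, summed to 615 and 563 against 597 and 589 FPKM, so their sums bracketed the wild type. The 2 genes are close copies. Their coding sequences are 89.6% identical over 1074 aligned positions in GENCODE release M21, and the longest identical run, 147 bases, covers positions 523 to 669 of the Scd1 coding sequence and 532 to 678 of that of Scd2. It is shown because reads inside it cannot be assigned to 1 of the 2 genes.
Scd1 and Scd2 shared coding run: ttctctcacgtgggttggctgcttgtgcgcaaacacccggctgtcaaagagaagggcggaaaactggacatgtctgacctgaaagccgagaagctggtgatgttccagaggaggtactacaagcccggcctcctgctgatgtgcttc

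Over the whole Scd1 transcript, however, 4.66% of the runs of 50 bases occur in another gene's transcript, and for Scd2 4.01%. The other genes of the family, Scd3 and Scd4, stood below 1 FPKM in every library. Adipocyte markers were looked at beside Scd1, which fat cells express strongly. Of 11 such markers 6 passed the filter, and Cfd was at 0 in all libraries, Adipoq at 0 in wild type and below 0.1 FPKM in the knockout libraries. All 6 tested markers had positive log2 differences (median 0.71), and 4, Pparg, Cebpa, Fabp4 and Lpl, lay above both wild-type libraries, beside 29.4% of all genes. Cebpa, an adipocyte transcription factor gene, stood at 8.28 and 3.72 FPKM against 2.36 and 1.83, and Fabp4, a fatty acid carrier gene, at 4.58 and 21.2 against 3.94 and 4.12. The list summed to 254 and 107 FPKM in the knockout libraries and 61.0 and 55.6 in wild type, mostly through Lpl, a lipoprotein lipase gene, at 190 and 17.4 against 3.33 and 3.56 FPKM. The part of these markers in the Scd1 level was not tested.

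Fads1 and Fads2 encode the front-end desaturases of polyunsaturated fatty acids. Fads1 stood at 95.1 and 94.5 FPKM in the knockout libraries and 125 and 122 in wild type. The groups did not overlap and the knockout libraries nearly coincided (log2 -0.38, SE 0.11, 95% interval -0.68 to -0.082, adjusted p = 0.25, limma). Fads2 stood at 81.1 and 66.2 FPKM against 91.4 and 86.4 (log2 -0.28, SE 0.15, adjusted p = 0.413, limma). The neighbouring gene Fads3, from the list of other pathway genes, stood at 64.6 and 57.4 FPKM against 93.4 and 88.5 (log2 -0.57, SE 0.13, adjusted p = 0.231, limma). All 3 genes of this cluster, which spans 155 kb of chromosome 19 from 10041569 to 10196877 in GRCm38, were lower in both knockout libraries than in either wild-type library.

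Scd1 and Scd2 lie on chromosome 19 too, from 44293674 to 44407879, 34097 kb away. The genes of that chromosome had a median log2 difference of 0.11 in knockout 1 and -0.10 in knockout 2. The Scd genes lay above and the Fads genes below that median in both knockout libraries. None of the 5 passed the test.

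**Figure D4:**
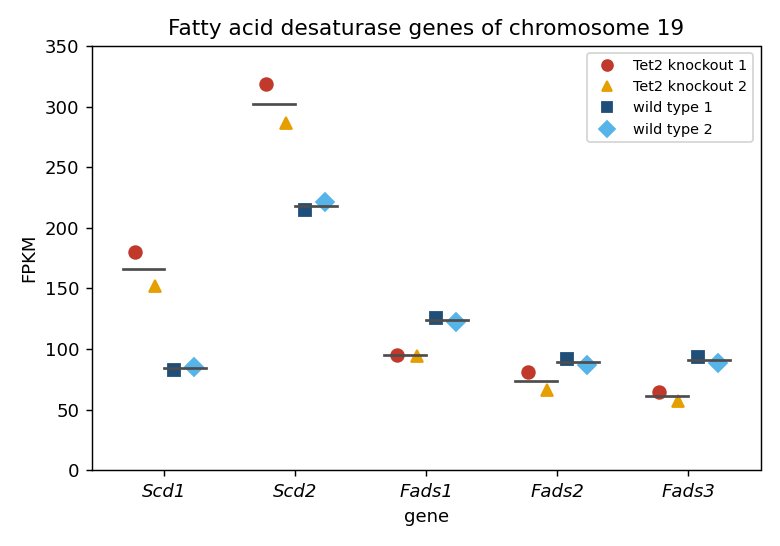
FPKM of 5 desaturase genes of chromosome 19 in each library, with a bar at each group's mean. The knockout-labelled points lie above wild type for Scd1 and Scd2 and below it for Fads1, Fads2 and Fads3.

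The other enzymes of the branch make and lengthen the chain or supply NADPH for it. Elovl6, which lengthens palmitate, stood at 34.3 and 27.3 FPKM in the knockout libraries and 22.2 and 23.3 in the wild-type pair (log2 0.41, SE 0.16, adjusted p = 0.314, limma). Me1, the malic enzyme gene that supplies NADPH for synthesis, stood at 98.1 and 131 FPKM against 78.6 and 87.6 (log2 0.45, SE 0.19, adjusted p = 0.332, limma). Acaca, whose product commits acetyl-CoA to fatty acids, stood at 43.0 and 38.0 FPKM against 36.1 and 34.8 (log2 0.18, adjusted p = 0.501, limma). These 3 lay above both wild-type libraries. Fasn, the fatty acid synthase gene, stood at 113 and 96.1 FPKM against 114 and 109, with knockout 1 inside the wild-type range (log2 -0.098, adjusted p = 0.73, limma).

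The regulators did not pass either, and the 2 SREBP genes had differences of opposite sign. Srebf2 stood at 42.2 and 48.0 FPKM in the knockout libraries and 38.8 and 37.5 in the wild-type pair (log2 0.23, SE 0.13, adjusted p = 0.413, limma). Srebf1 stood at 59.7 and 44.7 FPKM against 67.1 and 62.0 (log2 -0.31, SE 0.19, adjusted p = 0.444, limma). In each knockout library Srebf2 exceeded, and Srebf1 fell short of, the wild-type pair, by more in knockout 2. A transcript level says nothing of how much of either factor was cleaved and active.

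Scap, the escort of the SREBPs, stood at 111 and 65.8 FPKM in the knockout libraries and 87.3 and 87.9 in wild type, so knockout 1 lay above and knockout 2 below (log2 -0.034, SE 0.28, adjusted p = 0.96, limma). Insig1, which retains the complex and is itself an SREBP target, stood at 48.9 and 53.2 FPKM against 46.4 and 47.3 (log2 0.12, SE 0.12, adjusted p = 0.618, limma). Stard4, which carries cholesterol between membranes and is also an SREBP target, stood at 35.9 and 54.6 FPKM against 33.3 and 31.6 (log2 0.44, SE 0.24, adjusted p = 0.41, limma). Insig1 and Stard4 lay above both wild-type libraries, and as measured both were higher in knockout 2 than in knockout 1, like most sterol enzymes. Insig1 was higher by 0.12 on the log2 scale, less than the rise of its chromosome 5 median, from 0.016 to 0.22. Stard4 was higher by 0.59, more than the rise on chromosome 18, from -0.21 to -0.059. Of the regulators and Stard4, 3 of 5 stood higher in knockout 2 as measured (median 0.12). Less the chromosome medians, a calculation chosen after seeing the data, 2 of 5 did (median -0.086).

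Neighbouring lipid pathways gave 0 calls among their tested genes as well. Their counts stand beside 29.4% of all genes above both and 24.8% below both wild-type libraries. Of 5 tested genes of other sterol synthesis steps, 3 lay above both wild-type libraries and 0 below both, with a median of 0.36, a list too short to weigh against those shares. Among them Lbr, a sterol reductase of the nuclear envelope, stood at 69.2 and 71.9 FPKM against 43.6 and 48.3 (log2 0.61, SE 0.12, adjusted p = 0.224, limma). Acat1, the mitochondrial thiolase gene, stood at 61.4 and 74.0 against 47.8 and 45.7 FPKM. Of 18 tested genes of fatty acid supply, elongation and desaturation, 4 lay above both and 8 below both (median -0.11), among them Lpin1 and Gpam of glycerolipid synthesis. Lpin1 stood at 2.94 and 2.03 against 5.05 and 5.04 FPKM, and Gpam at 7.03 and 6.30 against 3.98 and 4.34.

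Among 14 tested genes of sterol sensing and uptake, 5 lay above both and 2 below both (median 0.20), near the shares of all genes. Npc2, which moves cholesterol out of lysosomes, stood at 72.5 and 88.4 FPKM in the knockout libraries and 227 and 211 in the wild-type pair (log2 -1.44, SE 0.15, adjusted p = 0.15, limma). On its chromosome, 12, the median was -0.46 in knockout 1 and -0.13 in knockout 2. Abcg1, a cholesterol exporter gene, stood at 2.47 and 1.70 FPKM against 0.844 and 0.527, and Nr1h2, which encodes an oxysterol receptor, at 34.8 and 23.2 against 48.6 and 45.8. Of 7 isoprenoid genes 2 lay above both and 2 below both (median 0.028). Rabggtb, a Rab prenylation gene, stood at 87.0 and 80.0 against 59.4 and 58.9 FPKM, and Fntb, a farnesyltransferase gene, at 14.7 and 21.7 against 31.8 and 31.9.

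Of 4 tested NADPH-supplying genes 0 lay above both and 1 below both (median -0.28). The pentose phosphate genes G6pdx and Pgd were far apart between the knockout libraries, at 145 and 36.3 FPKM and at 106 and 46.1 FPKM, beside 111 and 108 and beside 111 and 106 in wild type. Me2, the mitochondrial malic enzyme gene, went the other way between them, at 28.7 and 113 FPKM beside 31.5 and 31.5. In 10 tested genes of fatty acid oxidation, the opposing pathway, 1 lay above both and 4 below both (median -0.18). Ucp2, a mitochondrial carrier gene, stood at 36.4 and 10.8 FPKM against 90.6 and 87.0, and Acadl, an acyl-CoA dehydrogenase gene, at 63.2 and 48.7 against 80.1 and 88.0. The 1 gene above both was Acadm, another acyl-CoA dehydrogenase gene, at 79.6 and 68.2 FPKM against 57.4 and 56.6.

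**Figure D5:**
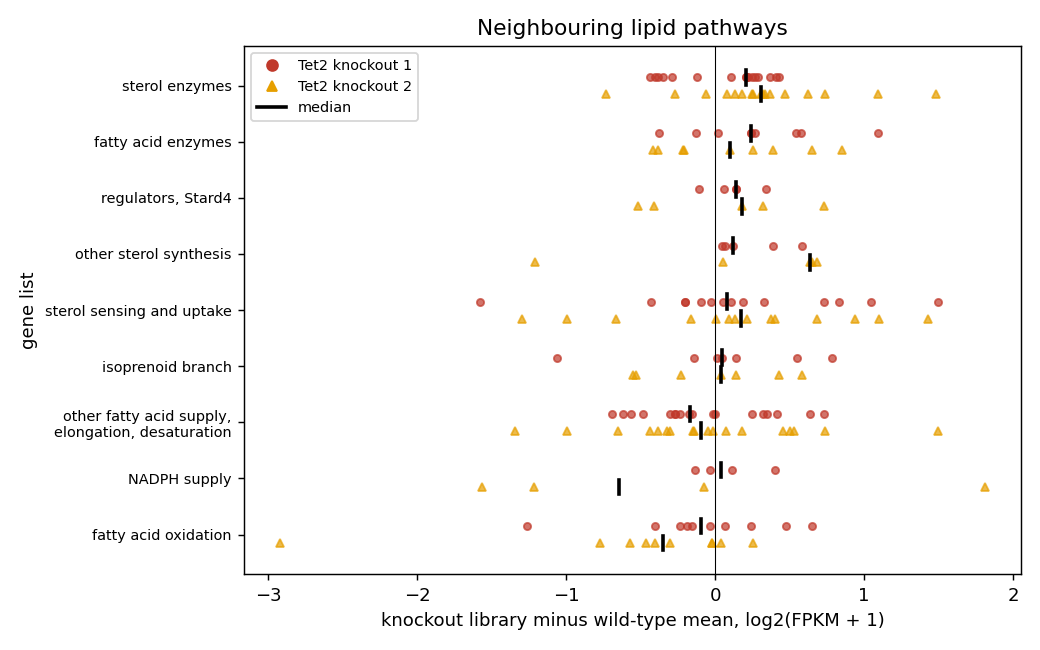
Difference of each knockout library from the wild-type mean in log2(FPKM + 1) for the tested genes of 9 lipid gene lists; points are genes and black bars are medians. The sterol enzymes have medians of 0.21 and 0.31, and the fatty acid oxidation genes of -0.096 and -0.35.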

How the data were processed

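The authors deposited 1 table of FPKM per gene and library; its 4 value columns carry the library titles. Tools listed in the submitters' processing notes are HTSeq 0.6.1, TopHat2 2.0.12 and Bowtie2 2.2.3, with build mm10; how gene lengths were set is not given in the sources used here. Names and coordinates came from GENCODE M21 (GRCm38), which holds 40456 of the identifiers. Library totals were worked out from the FPKM and the GENCODE M21 exon length of each gene. Each is the total most often obtained when a gene is taken to hold 1 read. Smallest whole read numbers were then worked out for the 25309 genes above 0, and these read numbers are lower bounds.

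Levels were tested as log2(FPKM + 1) with limma 3.58.1 (R 4.3.3, variance trend fitted), keeping the 12344 genes that averaged 1 FPKM or more. The p-values are two-sided, adjusted by Benjamini-Hochberg over those genes, and called at 0.05. An exact permutation of 2 libraries against 2 cannot go below p = 0.33. On simulated data with the measured spreads, wider in the knockout libraries, unchanged genes fell below an unadjusted p of 0.05 (limma) more often than it states. The p-values here, adjusted ones included, may be too small. Each gene's simulated spread came from 2 libraries per group and is itself uncertain. The simulation therefore cannot show whether this holds for the measured data, or by how much. A positive log2 difference means higher in the knockout-labelled libraries; the pseudocount of 1 understates changes of low genes; folds are ratios of mean FPKM. Chromosome medians are over genes averaging 5 FPKM or more.

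The members and lists were chosen with earlier results of these data known. Values are given for members by smallest p in each branch, all regulators, and the 3 genes of smallest p in other lists where printed; further genes were chosen after their values were seen.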

Additional observations from a re-analysis of the deposited data

How the results depend on the processing

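The count of 0 called members held under both other pseudocounts, without the filter, with a mean of at least 5 FPKM, under trimmed-mean scaling, quantile normalization and the replicate block, and when the recovered reads were tested with voom, an alternative chosen after seeing the data. Leaving out 1 library gave 0 to 26 called members and 0 to 7415 called genes. Without knockout 1 or 2, the remaining knockout library is taken to vary as wild type does. Calls from these fits, over members or all genes, are therefore not counted here, and only their log2 differences are given. The 2 called genes of the whole table became 1 with a pseudocount of 0.1 or 0.01, and 0 in the voom fit and with the replicate block; the cause was not tested. With the replicate block 1328 genes had an unadjusted p under 0.05. The difference of replicate 1 from replicate 2 had a correlation of 0.00612 between knockout and wild type over 12344 genes. The wild-type libraries differed little (median absolute log2 difference 0.082, beside 0.345 between the knockout libraries). This correlation therefore cannot show whether same-numbered samples were paired. The blocked fit changed no member's call. Scd1 ranged from an adjusted p of 0.155 to 0.446 (limma) over the alternatives with all 4 libraries, always higher in the knockout libraries, while leaving out 1 library gave log2 differences of 0.85 to 1.09.

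The sterol median ran from 0.16 to 0.31 and the fatty acid median from 0.098 to 0.24 with 1 library left out, and their gap from -0.21 to 0.046. Taking off each chromosome's median, added after seeing the data, gave a sterol median of 0.083 and a gap of 0.16. Without Acly the fatty acid median was 0.30 and the gap 0.092, and with the regulators joined to the branches they were 0.10 and -0.11. The sign of the gap thus depends on these choices. Apart from left-out libraries, 2 of 248 member values changed sign, Acly with trimmed-mean scaling (-0.0098) and Ebp with quantile normalization (0.0048), both near 0. With 1 library left out, 12 of 124 changed sign, with ranges of -0.21 to 0.24 (Acly), -0.38 to 0.14 (Cyp51), -0.35 to 0.26 (Ebp), -0.22 to 0.020 (Fasn), -0.44 to 0.077 (Fdft1), -0.29 to 0.37 (Hmgcs1), -0.27 to 0.41 (Hsd17b7), -0.12 to 0.18 (Idi1), -0.73 to 0.29 (Nsdhl) and -0.41 to 0.34 (Scap). Of all 31, Fdps rests on the fewest reads, at least 41 in wild type 1.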
